A study of Homo sapiens with 20 samples.

Results

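The 10 genes described here encode secreted mediators of inflammation. They are 6 chemokines, CXCL1, CXCL2, CXCL3, CXCL8, CCL3 and CCL20, and 4 cytokines, IL1A, IL1B, IL6 and LIF. Each was found by its symbol in the platform annotation, among transcript clusters (the probes of 1 transcription unit) that list 1 gene symbol, with the brightest such cluster standing for the gene. All 10 had exactly 1 such cluster, no filter on low signal removed any of them, and they are 10 of the 18417 genes named in this way. Total RNA was taken from B5/589, a line of human mammary epithelium that has been immortalized, carrying an inducible p53 transgene and grown in medium with serum and epidermal growth factor. The inducer, doxycycline, was given at 3 ng or 5 ng, each for 12 h and for 24 h, and uninduced cells (0 ng) were collected at 24 h, which makes 5 groups of 4 arrays; no volume is stated for the dose. The 0 ng cells carried the transgene as well, and neither uninduced cells at 12 h nor cells without the transgene were analysed here. The sources used here give neither the promoter that drives the transgene nor whether the cells are 1 clone. The labels do not state that the 4 arrays of a group are separate cultures, so the p-values below measure only the spread among these arrays, which may be technical, and the number of arrays limits the precision.

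Chemokines are small secreted proteins that attract leukocytes through receptors of the G protein-coupled class. CXCL1, CXCL2, CXCL3 and CXCL8 attract neutrophils through CXCR2, CCL3 attracts monocytes, macrophages and T cells, and CCL20 attracts dendritic cells and lymphocytes through CCR6. IL1A and IL1B are alternative ligands of the interleukin-1 receptor, while IL6 and LIF signal through receptors that share the IL6ST chain. Epithelial cells make many of these proteins, their genes are well known targets of NF-kB, AP-1 and C/EBP factors, and several belong to the secretory phenotype of senescent cells. p53 is a transcription factor that is stabilised by stress and that induces cell cycle arrest genes such as CDKN1A.

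Promoter sequence is shown for the 5 members whose signals as deposited passed the test in at least 1 comparison and for CXCL3, a close relative of CXCL1 and CXCL2 that passed in none. RefSeq on GRCh38.p14 gave at least 1 window for 9 of the 10 members. It gave 3 for CCL3 and 2 for IL1A, of which only that nearest the annotated start of the gene was searched. The 250 bases that end just before the annotated start of each gene are printed, with no transcribed base. The windows are chr4:73869143-73869392 on the plus strand for CXCL1, chr4:74099196-74099445 on the minus strand for CXCL2, chr4:74038690-74038939 on the minus strand for CXCL3 and chr4:73740319-73740568 on the plus strand for CXCL8. The window of IL6 is chr7:22726950-22727199 on the plus strand, and that of CCL3 is chr17:36090144-36090393 on the minus strand. Each is read from 5′ to 3′ toward the gene, and capitals mark matches to the NF-kB motif GGNNTTTCC on either strand.
CXCL1: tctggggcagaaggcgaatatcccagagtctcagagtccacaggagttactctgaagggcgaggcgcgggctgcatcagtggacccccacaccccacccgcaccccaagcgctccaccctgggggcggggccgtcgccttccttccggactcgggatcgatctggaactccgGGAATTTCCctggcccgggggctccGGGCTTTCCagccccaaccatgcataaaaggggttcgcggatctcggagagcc
CXCL2: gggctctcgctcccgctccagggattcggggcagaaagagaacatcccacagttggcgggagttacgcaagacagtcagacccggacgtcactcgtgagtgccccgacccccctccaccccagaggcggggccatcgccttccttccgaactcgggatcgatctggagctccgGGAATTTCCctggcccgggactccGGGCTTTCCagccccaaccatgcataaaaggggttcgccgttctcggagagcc
CXCL3: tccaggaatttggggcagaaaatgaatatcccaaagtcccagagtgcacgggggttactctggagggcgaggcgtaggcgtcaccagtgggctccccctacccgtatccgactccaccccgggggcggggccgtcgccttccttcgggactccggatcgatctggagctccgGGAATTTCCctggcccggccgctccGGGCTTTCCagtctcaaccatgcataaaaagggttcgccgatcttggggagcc
CXCL8: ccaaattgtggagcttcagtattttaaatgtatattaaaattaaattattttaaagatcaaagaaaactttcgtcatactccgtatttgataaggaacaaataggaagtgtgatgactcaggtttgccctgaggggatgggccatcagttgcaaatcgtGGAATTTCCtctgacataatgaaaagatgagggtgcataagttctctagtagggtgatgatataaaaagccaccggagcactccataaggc
IL6: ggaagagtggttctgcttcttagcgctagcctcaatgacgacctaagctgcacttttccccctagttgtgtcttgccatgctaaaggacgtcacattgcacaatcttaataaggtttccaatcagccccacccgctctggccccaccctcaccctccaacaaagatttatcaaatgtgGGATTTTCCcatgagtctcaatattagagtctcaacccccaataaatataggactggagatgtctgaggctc
CCL3: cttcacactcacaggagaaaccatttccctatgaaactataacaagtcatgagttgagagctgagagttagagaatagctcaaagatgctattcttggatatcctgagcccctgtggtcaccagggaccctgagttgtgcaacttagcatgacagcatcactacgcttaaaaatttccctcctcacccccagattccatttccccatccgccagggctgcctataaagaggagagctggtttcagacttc
The NF-kB motif was found in 6 of the 9 windows, those of CXCL1, CXCL2, CXCL3, CXCL8, IL6 and CCL20, and 5.48% of 35114 promoter windows of the same length hold it. CXCL1, CXCL2 and CXCL3 each hold 2 matches, GGAATTTCC and GGGCTTTCC, which in CXCL1 and CXCL3 lie 78 to 70 and 53 to 45 bases before the start, and in CXCL2 77 to 69 and 53 to 45. CXCL8 holds GGAATTTCC 91 to 83 bases before the start, and IL6 holds GGATTTTCC 72 to 64 bases before it. The windows searched for CCL3, IL1A and IL1B hold no match to these letters. The AP-1 motif TGANTCA was found on either strand in CXCL8 and IL1A and in 6.57% of all windows, and the C/EBP motif TTGCNNAA in CXCL2, CCL3, IL1B and IL6 and in 9.05% of all windows. No 2 matches overlapped. The p53 response element was searched without mismatch as a pair of decamers RRRCWWGYYY with a spacer of 0 to 13 bases. Here R is A or G, W is A or T and Y is C or T. The element was found in 0 of the 9 windows and in 0.0256% of all windows. With matches this rare, finding none in 9 windows does not show that p53 sites are lacking. In a global alignment of the 100 bases nearest the start, CXCL1 and CXCL2 were 94.1% identical, CXCL1 and CXCL3 90.0% and CXCL2 and CXCL3 89.2%, against 42.9% to 46.1% for each of them with CXCL8. A match is a description of the letters and not a measurement of binding.

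The deposited values are log2 signals, and the arrays differed in overall brightness, with array medians from 4.54 to 5.54. The median gene differed by -0.235 between 3 ng and 0 ng at 24 h and by -0.240 between 5 ng and 0 ng, on the log2 scale, and by 0.08 and 0.07 after quantile normalization between arrays. Each result is therefore given as deposited and, where the sign or the call changes, after quantile normalization too. A gene was called where the adjusted p of limma (Benjamini-Hochberg, over all 18417 genes) was under 0.05. CDKN1A, a p53 target that encodes a cyclin-dependent kinase inhibitor, was higher by 0.72 ± 0.14 (SE) at 3 ng and by 1.44 ± 0.14 at 5 ng at 24 h, and MDM2, another p53 target, by 0.18 ± 0.15 (not called) and 0.47 ± 0.15. MDM2 was called higher at both doses after quantile normalization, by 0.48 and 0.62 (adjusted p = 1.4e-06 and 2.1e-08 in limma). The epithelial keratins KRT5, KRT14, KRT8 and KRT18 had group means from 11.18 to 12.95. Some luminal epithelial markers were lower, with means over all arrays of 5.45 for KRT19, 5.17 for MUC1 and 2.54 for ESR1. Of the 8 luminal markers measured, 5 lay above the median gene. The leukocyte marker PTPRC, which encodes the pan-leukocyte protein CD45, had group means from -0.70 to -0.34, and LYZ, the macrophage lysozyme, from 0.18 to 0.84. Other leukocyte markers had higher signals, with means over all arrays of 8.71 for CD68, 6.40 for TYROBP and 5.83 for NKG7, and 5 of the 15 measured lay above the median gene. The summed linear level of the 15 of 16 leukocyte markers that were measured ranged from 730 to 921 in the 0 ng arrays, 622 to 783 at 3 ng for 24 h and 692 to 806 at 5 ng for 24 h. Among those markers CD14 differed by -0.71 at 3 ng (not called after quantile normalization) and -1.43 at 5 ng, CSF1R by -0.73 and -0.99 and ITGAM by 0.56 and 1.10. The part of such markers in the results below was not tested. In bulk RNA, fewer cells of a kind and less RNA per cell cannot be told apart.

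At 24 h, CCL3 and IL6 rose and CXCL1 and CXCL8 fell in cells given 3 ng against uninduced cells, by 1.53, 0.72, -0.74 and -0.85 on the log2 scale. The share of all genes called higher in that comparison was 1.50%, and the share called lower was 23.0%, so 2 of 10 members called lower is a share near the background. The other 6 members did not pass the test. For all 4 called members the arrays of the groups did not overlap, which held for 1.50% of all genes in the higher direction and 27.9% in the lower. At 5 ng the same 4 genes were called in the same directions and CXCL2 was also called lower, giving 2 of 10 members higher against 4.52% of all genes and 3 of 10 lower against 23.5%. The arrays of those 5 members did not overlap either, as held for 4.94% of all genes upward and 27.0% downward. Both comparisons use the same 0 ng arrays. The median member differed by -0.128 at 3 ng and by -0.020 at 5 ng, against all-gene medians of -0.235 and -0.240.

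**Figure D1:**
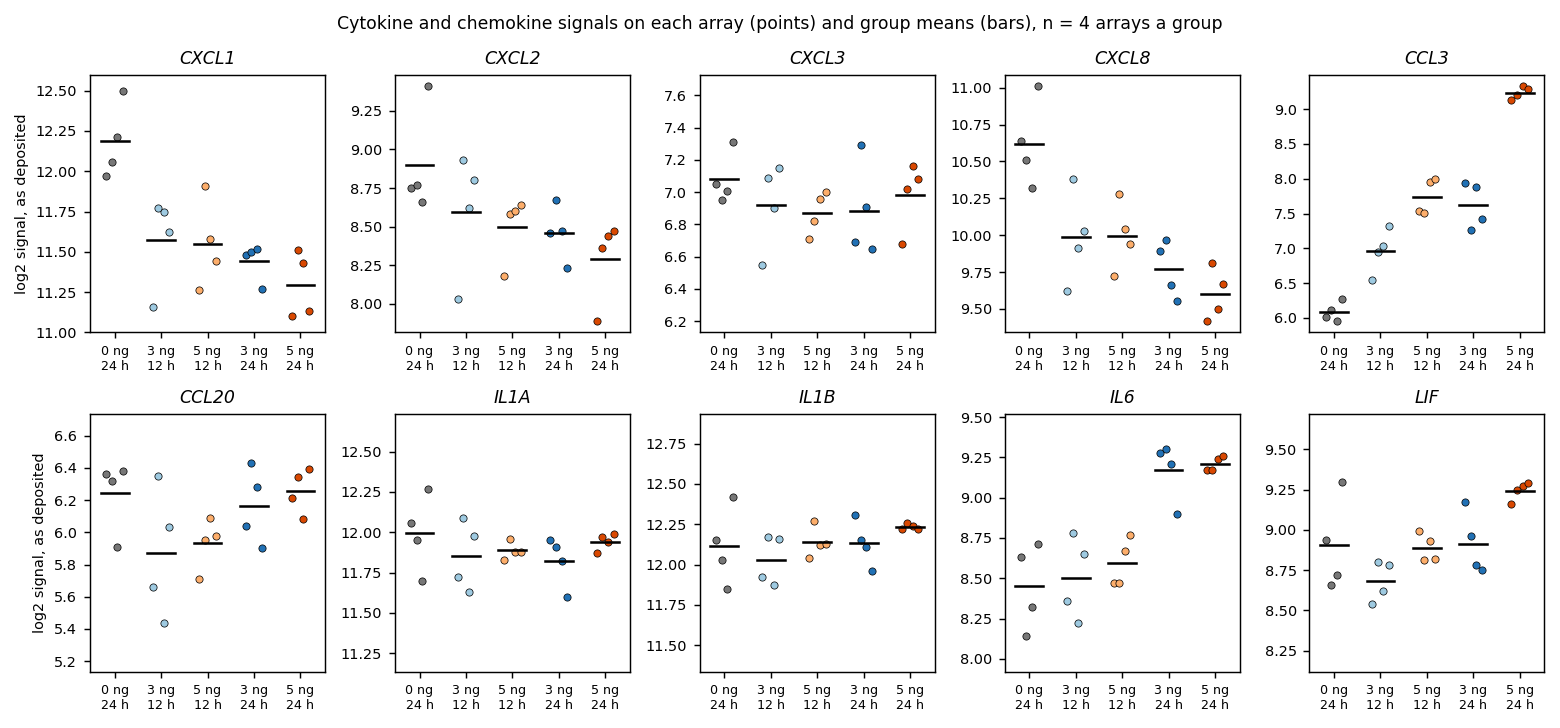
log2 signal as deposited of each member on each of the 20 arrays (points) with the group mean (bars), 4 arrays a group, for the 5 doses and times on the horizontal axis. CCL3 runs from a mean of 6.09 at 0 ng to 9.24 at 5 ng for 24 h, IL6 is higher in both 24 h induced groups (means 9.17 and 9.21) than in the other 3, and CXCL1 and CXCL8 are highest in the 0 ng arrays.

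After quantile normalization, 5 of 10 members were called higher at 3 ng (15.4% of all genes) and 2 of 10 lower (12.5%). At 5 ng the counts were 6 higher (20.6% of all genes) and 2 lower (17.2%). On this scale and as deposited, CCL3 and IL6 were called higher and CXCL1 and CXCL8 lower at each dose. LIF, IL1A and IL1B were called higher at both doses, and CCL20 at 5 ng, on the quantile scale and not as deposited, and CXCL2 was called lower at 5 ng as deposited and not on the quantile scale.

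**Figure D2:**
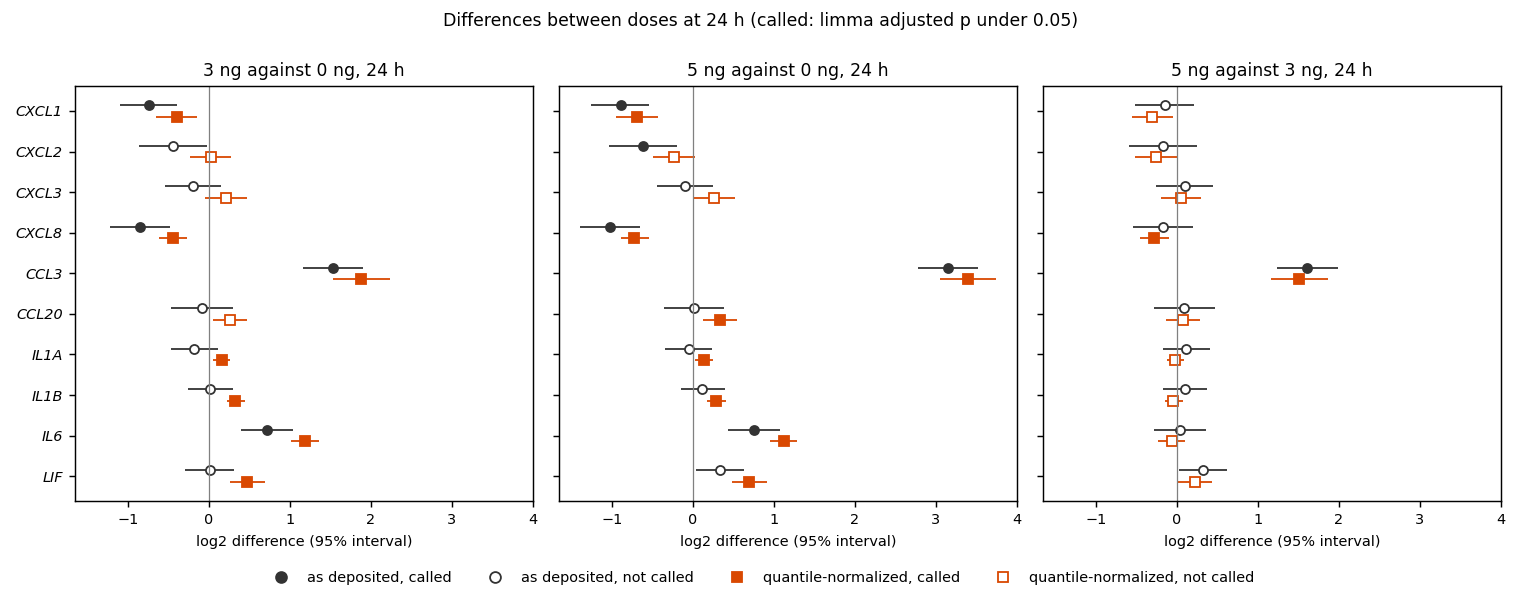
log2 differences between doses at 24 h for the 10 members, with 95% intervals from limma, as deposited (circles) and after quantile normalization (squares), filled where the adjusted p was under 0.05. CCL3 is the only member whose interval lies wholly above 1 in all 3 panels, and IL6 is shifted to the right against 0 ng (0.72 and 0.76 as deposited) but not between 5 ng and 3 ng (0.04).

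CCL3, also named MIP-1 alpha, lies at chr17:36088256-36090143 on GRCh38.p14 and had the largest differences of the 10 members. Its signals were 6.01, 6.12, 5.96 and 6.27 in the 0 ng arrays. At 12 h they were 6.55, 6.94, 7.03 and 7.32 at 3 ng and 7.53, 7.51, 7.95 and 7.99 at 5 ng. At 24 h they were 7.94, 7.26, 7.88 and 7.42 at 3 ng and 9.13, 9.21, 9.33 and 9.29 at 5 ng. Every induced array was above every 0 ng array, and the 5 ng arrays at 24 h were above all the others. For the 12 h groups against 0 ng, the share of all genes without overlap was not counted. The group means were 6.09 ± 0.14 (SD, n = 4) at 0 ng, 6.96 ± 0.32 at 3 ng for 12 h, 7.62 ± 0.34 at 3 ng for 24 h, 7.74 ± 0.26 at 5 ng for 12 h and 9.24 ± 0.09 at 5 ng for 24 h, and the arrays of the third and the fourth in this order overlapped.

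At 24 h CCL3 rose by 1.53 ± 0.18 (SE) at 3 ng, or 2.90-fold, with an adjusted p of 2.1e-06 in limma. It rose by 3.15 ± 0.18 at 5 ng, or 8.88-fold, with an adjusted p of 2.7e-11, the 20th largest rise among the 18417 genes. Between the doses themselves CCL3 was the only member called at 24 h, where 1.79% of all genes were called higher and 0.755% lower at 5 ng than at 3 ng. After quantile normalization CCL3 was 1 of 10 members called higher (5.96% of all genes) and CXCL8 1 of 10 called lower (4.42%). As deposited the dose difference in CCL3 was 1.61 (95% interval 1.24 to 1.99, adjusted p = 3.4e-05 in limma), or 3.06-fold, and ranked eighth among the rises. At 12 h the arrays of the 2 doses did not overlap, as was true in this direction for 0.793% of all genes, and the difference was 0.79 ± 0.18 with an adjusted p of 0.188. After quantile normalization it was 0.88 with an adjusted p of 0.00663 in limma, the 1 member called higher beside 2.32% of all genes (0.424% lower), and with arrays centred on their medians 0.98 (adjusted p = 0.00718 in limma).

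With time, CCL3 rose from 12 h to 24 h by 0.67 ± 0.18 at 3 ng (adjusted p = 0.0347 in limma) and by 1.50 ± 0.18 at 5 ng (adjusted p = 6.1e-06 in limma), the third largest rise of all genes at that dose. The 3 ng call was lost when 3 ng for 12 h replicate 1 or 2, or 3 ng for 24 h replicate 1 or 3, was left out, with differences from 0.53 to 0.79 and adjusted p-values up to 0.133, and with only those groups in the fit (adjusted p = 0.123 in limma). The interaction, the dose difference at 24 h minus that at 12 h, was 0.83 ± 0.25 for CCL3 (95% interval 0.30 to 1.36), with an unadjusted p of 0.00371 and an adjusted p of 1 in limma. No member was called in the interaction by limma, CCL3 was the 1 member with an unadjusted p under 0.05, and 0 genes were called (391 at an unadjusted p under 0.05). After quantile normalization 13 genes were called and CCL3 was at 0.63 (adjusted p = 0.656 in limma). A different change of CCL3 with time at the 2 doses was not shown after adjustment on either scale.

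CCL3 has close copies, CCL3L1 and CCL3L3, on the same chromosome. A further 3 clusters list CCL3 together with CCL3L1 and CCL3L3, and these 3 hold identical values. Their group means were 6.97 ± 0.29 (SD, n = 4) at 0 ng, 7.40 ± 0.25 at 3 ng for 12 h, 7.66 ± 0.21 at 3 ng for 24 h, 7.71 ± 0.27 at 5 ng for 12 h and 8.56 ± 0.18 at 5 ng for 24 h. The order of the group means was that of the cluster listing CCL3 alone, over a narrower range. Signal from the near-identical copies cannot be told apart from signal of CCL3 in either.

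IL6, at chr7:22727200-22731998, encodes a cytokine of the acute phase response. Its signals were 8.63, 8.14, 8.32 and 8.71 in the 0 ng arrays, 8.36, 8.78, 8.22 and 8.65 at 3 ng for 12 h, and 8.47, 8.47, 8.67 and 8.77 at 5 ng for 12 h. At 24 h they were 9.28, 9.30, 9.21 and 8.90 at 3 ng and 9.17, 9.17, 9.24 and 9.26 at 5 ng. The 8 induced arrays at 24 h were above the other 12, which overlapped one another as deposited. IL6 rose by 0.72 ± 0.15 at 3 ng (1.65-fold, adjusted p = 0.00186 in limma) and by 0.76 ± 0.15 at 5 ng (1.69-fold, adjusted p = 0.00075 in limma) at 24 h. The doses differed by 0.04 at 24 h with a 95% interval of -0.28 to 0.36, so a dose difference of the size seen for CCL3 lies outside the interval, and the difference was -0.06 after quantile normalization. On the quantile scale the rises against 0 ng were 1.19 and 1.13, or 2.28-fold and 2.18-fold.

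At 12 h IL6 differed from uninduced cells by 0.05 ± 0.15 at 3 ng and by 0.15 ± 0.15 at 5 ng, with adjusted p-values of 0.886 and 0.617 in limma. After quantile normalization these differences were 0.28 and 0.42 and both were called, while with arrays centred on their medians the 3 ng difference was -0.03. From 12 h to 24 h IL6 rose by 0.67 ± 0.15 at 3 ng (adjusted p = 0.0115 in limma) and by 0.61 ± 0.15 at 5 ng (adjusted p = 0.0229 in limma). The 3 ng call was lost with only those groups in the fit (adjusted p = 0.0863 in limma). The 5 ng call was lost with 7 of the 8 arrays left out in turn, all except 5 ng for 12 h replicate 4, with differences from 0.57 to 0.67 and adjusted p-values up to 0.0928. The share of all genes called higher at 24 h than at 12 h was 0.0706% at 3 ng and 0.424% at 5 ng, and CCL3 and IL6 were the 2 of 10 members called at each dose. The share called lower was 4.36% and 3.55%, and no member was among those. After quantile normalization 5 of 10 members, CCL3, CCL20, IL1B, IL6 and LIF, were called higher at 24 h at 3 ng (9.92% of all genes higher and 6.06% lower). At 5 ng 4 of 10, CCL3, CCL20, IL6 and LIF, were called higher (10.8% of all genes) and CXCL8 was called lower (7.60%).

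LIF, at chr22:30240453-30246759, encodes leukemia inhibitory factor, a cytokine that shares the IL6ST receptor chain with IL6. Its signals were 8.94, 8.66, 8.72 and 9.30 at 0 ng, 9.17, 8.96, 8.78 and 8.75 at 3 ng for 24 h, and 9.16, 9.25, 9.27 and 9.29 at 5 ng for 24 h. The 0 ng array at 9.30 was above every 5 ng array, so the groups overlapped. LIF differed from 0 ng by 0.01 at 3 ng and by 0.34 ± 0.14 at 5 ng, with adjusted p-values of 0.978 and 0.0868 in limma. With arrays centred on their medians the 5 ng difference was 0.61 and was called (adjusted p = 0.0081 in limma). After quantile normalization the 0 ng arrays lay between 8.50 and 8.73, the 3 ng arrays between 8.99 and 9.27 and the 5 ng arrays between 9.28 and 9.39. These ranges did not overlap, but the share of all genes for which this held after quantile normalization was not counted. On that scale LIF was called higher by 0.47 at 3 ng and by 0.70 at 5 ng, and the difference of 0.22 between the doses was not called. At 12 h its means as deposited were 8.68 ± 0.13 (SD, n = 4) at 3 ng and 8.89 ± 0.09 at 5 ng. From 12 h to 24 h LIF differed by 0.23 at 3 ng and 0.35 at 5 ng, neither called as deposited, and by 0.46 and 0.45 after quantile normalization, both called.

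IL1A and IL1B lie on chromosome 2 at chr2:112773925-112784493 and chr2:112829751-112836779, and they encode interleukin-1 alpha and interleukin-1 beta. IL1A ranged from 11.60 to 12.27 over the 20 arrays and IL1B from 11.85 to 12.42. The 0 ng arrays alone spanned 11.70 to 12.27 for IL1A and 11.85 to 12.42 for IL1B, so every induced array of IL1B fell within their range. As deposited, IL1A differed from 0 ng by -0.18 at 3 ng and -0.05 at 5 ng, and IL1B by 0.02 and 0.12, with no call in limma. After quantile normalization the sign for IL1A turned, to 0.16 and 0.14, and both genes were called higher at both doses, IL1B by 0.33 and 0.29. The spread within groups was 0.16 for IL1A and 0.15 for IL1B as deposited (pooled SD) and 0.05 and 0.06 after quantile normalization. These differences of at most 1.26-fold on the quantile scale thus depend on how the arrays are scaled.

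CXCL1, at chr4:73869393-73871308, encodes a growth-regulated neutrophil attractant. Its signals were 11.97, 12.06, 12.21 and 12.50 in the 0 ng arrays. At 24 h they were 11.48, 11.50, 11.52 and 11.27 at 3 ng and 11.10, 11.51, 11.43 and 11.13 at 5 ng. At 12 h they were 11.16, 11.77, 11.75 and 11.62 at 3 ng and 11.26, 11.91, 11.58 and 11.44 at 5 ng. As deposited, every induced array at either time was below every 0 ng array, the highest being 11.91 at 5 ng for 12 h. After quantile normalization the arrays at 3 ng for 12 h (11.36 to 11.95) overlapped those at 0 ng (11.79 to 12.28). The share of all genes without overlap was not counted for the 12 h groups against 0 ng. CXCL1 fell by 0.74 ± 0.17 on the log2 scale at 3 ng for 24 h (1.67-fold, adjusted p = 0.00321 in limma). At 5 ng it fell by 0.89 ± 0.17 (1.86-fold, adjusted p = 0.00041 in limma). The doses differed by -0.15 (95% interval -0.51 to 0.21), which was not called, and after quantile normalization the differences from 0 ng were -0.39 and -0.69, both called. With arrays centred on their medians the 3 ng difference was -0.52 with an adjusted p of 0.0948 in limma.

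CXCL8, at chr4:73740569-73743716, encodes interleukin-8, a neutrophil attractant. Its signals were 10.64, 10.51, 10.32 and 11.01 at 0 ng, 9.89, 9.97, 9.66 and 9.55 at 3 ng for 24 h, and 9.42, 9.81, 9.50 and 9.67 at 5 ng for 24 h. The 0 ng arrays did not overlap with either induced group at 24 h, while the induced groups overlapped each other. The 12 h arrays ran from 9.62 to 10.38 at 3 ng, 1 of them above the lowest 0 ng array, and from 9.72 to 10.28 at 5 ng. The changes at 24 h were -0.85 ± 0.18 at 3 ng (adjusted p = 0.00158 in limma) and -1.02 ± 0.18 at 5 ng (2.03-fold, adjusted p = 0.00017 in limma). After quantile normalization the means were 10.39 ± 0.07 (SD, n = 4) at 0 ng, 9.95 ± 0.09 at 3 ng and 9.68 ± 0.12 at 5 ng for 24 h. On that scale CXCL8 was called lower at 5 ng than at 3 ng, by 0.28 with an adjusted p of 0.0413 in limma, whereas the difference as deposited was -0.17 (95% interval -0.54 to 0.20) and was not called.

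Against the 0 ng arrays at 24 h, dose and time of collection both differ for the 12 h groups. At 5 ng for 12 h CCL3 was called higher and CXCL1 and CXCL8 lower, among 3.44% of all genes higher and 11.5% lower. CCL3 differed by 1.66 ± 0.18 (3.15-fold, adjusted p = 2e-06 in limma), CXCL1 by -0.64 ± 0.17 (adjusted p = 0.015 in limma) and CXCL8 by -0.63 ± 0.18 (adjusted p = 0.0222 in limma). The CXCL1 call was lost without 5 ng for 12 h replicate 1 or 0 ng replicate 4 (-0.76 to -0.53 over the arrays left out, adjusted p up to 0.07), and the CXCL8 call without either of these or 0 ng replicate 1 (-0.73 to -0.50, adjusted p up to 0.103). Both were also lost with arrays centred on their medians (CXCL1 -0.52, adjusted p = 0.0925, and CXCL8 -0.51, adjusted p = 0.0532 in limma), and CXCL8 with only these groups in the fit (adjusted p = 0.0571 in limma). At 3 ng for 12 h CCL3 alone was called higher, by 0.87 ± 0.18 (adjusted p = 0.00852 in limma), against 1.57% of all genes higher and 1.24% lower. CXCL1 and CXCL8 there were at -0.61 and -0.64, with adjusted p-values of 0.0579 and 0.0598 in limma, and both were called lower after quantile normalization at -0.42 and -0.41. On that scale CCL3 and IL6 were called higher at 3 ng (6.61% of all genes) and CXCL1, CXCL8 and CCL20 lower (8.57%). At 5 ng CCL3, IL6 and IL1B were called higher (11.5% of all genes) and CXCL1 and CXCL8 lower (14.3%).

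**Figure D3:**
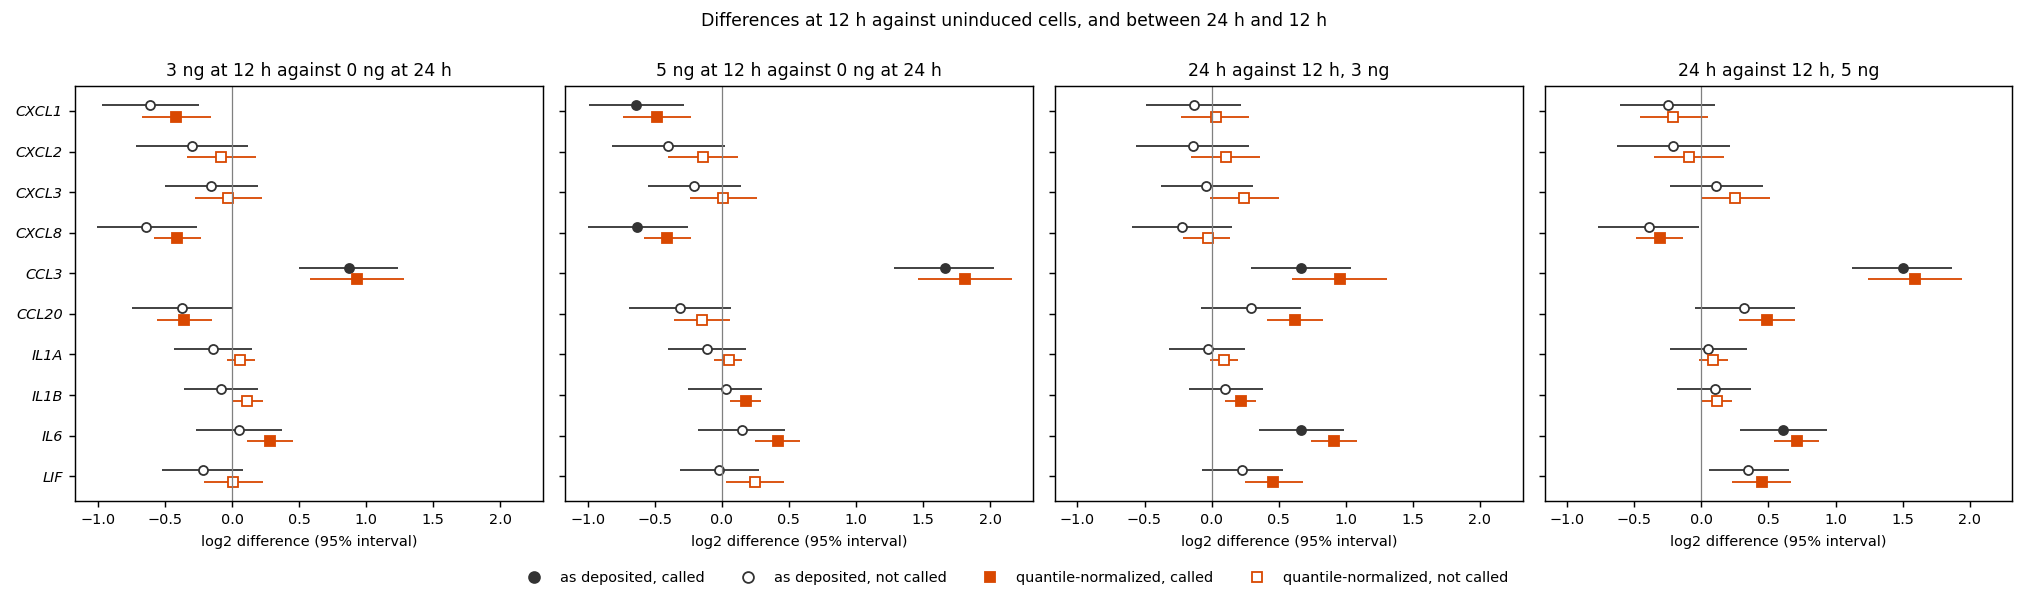
log2 differences with 95% intervals for the 10 members at 12 h against uninduced cells at 24 h (left pair of panels) and between 24 h and 12 h at each dose (right pair), as deposited (circles) and after quantile normalization (squares), filled where the limma adjusted p was under 0.05. CXCL1 and CXCL8 lie below 0 by 12 h (-0.61 and -0.64 at 3 ng, -0.64 and -0.63 at 5 ng as deposited), and IL6 lies near 0 at 12 h as deposited and rises between 12 h and 24 h (0.67 and 0.61).

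CXCL2 and CXCL3, at chr4:74097040-74099195 and chr4:74036589-74038689, encode neutrophil attractants closely related to CXCL1. CXCL2 was at 8.75, 8.77, 8.66 and 9.41 in the 0 ng arrays and at 7.89, 8.36, 8.44 and 8.47 at 5 ng for 24 h, with no overlap. Its fall of 0.61 ± 0.20 at 5 ng was called (adjusted p = 0.0284 in limma) and that of 0.44 ± 0.20 at 3 ng was not (adjusted p = 0.126 in limma). The 5 ng call was lost without 0 ng replicate 4 or 5 ng for 24 h replicate 1, with values from -0.69 to -0.44 and adjusted p-values up to 0.136. At 12 h the means of CXCL2 were 8.59 ± 0.40 (SD, n = 4) at 3 ng and 8.50 ± 0.21 at 5 ng, against 8.90 ± 0.35 at 0 ng, and neither difference was called. After quantile normalization CXCL2 differed from 0 ng at 24 h by 0.03 at 3 ng and by -0.23 at 5 ng, and neither was called. CXCL3 ranged from 6.55 to 7.31 over all arrays, with group means from 6.87 to 7.08, and was called in none of the 9 comparisons on either scale. For the 3 genes whose windows share both NF-kB matches, the deposited difference at 5 ng for 24 h was -0.89 for CXCL1, -0.61 for CXCL2 and -0.09 for CXCL3. The differences between these genes were not tested.

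CCL20, at chr2:227813842-227817556, was at 6.36, 6.32, 5.91 and 6.38 in the 0 ng arrays, and the induced arrays ran from 5.44 to 6.43. As deposited it was called in none of the comparisons, with differences of -0.08 at 3 ng and 0.01 at 5 ng for 24 h. After quantile normalization its group means were 6.07 ± 0.18 (SD, n = 4) at 0 ng, 5.71 ± 0.10 at 3 ng for 12 h, 5.92 ± 0.13 at 5 ng for 12 h, 6.33 ± 0.15 at 3 ng for 24 h and 6.41 ± 0.14 at 5 ng for 24 h. On that scale CCL20 was called lower at 3 ng for 12 h than in uninduced cells, by 0.36, and higher at 24 h than at 12 h, by 0.62 at 3 ng and 0.49 at 5 ng. With arrays centred on their medians these 3 differences were -0.45, 0.60 and 0.48, all called (adjusted p = 0.0246, 0.00918 and 0.0317 in limma).

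Between the doses at 12 h, where 0.0217% of all genes were called, no member passed the test in limma, and 1 member, CCL3, had an unadjusted p under 0.05. The other 9 members differed by -0.09 to 0.20 as deposited, the largest being LIF at 0.20. As deposited its arrays at 5 ng were all above those at 3 ng, as was true for 0.793% of all genes. After quantile normalization the LIF arrays of these groups overlapped (8.40 to 8.85 at 3 ng and 8.71 to 9.17 at 5 ng). With a trended, robust variance CCL3 was called (adjusted p = 0.0209 in limma).

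Correlations between members describe the same 20 arrays, whose 5 groups share dose and time, and quantile-normalized values are used so that brightness is not shared. CXCL1 and CXCL8 had a Pearson r of 0.86, IL6 and LIF 0.86, IL1B and IL6 0.91, and CCL3 and LIF 0.86, while CXCL8 and CCL3 had -0.87. CXCL1 and CXCL3 had -0.05. As deposited, the first 3 of these pairs had 0.92, 0.69 and 0.58. CCL3 and LIF had 0.62 as deposited, CXCL8 and CCL3 had -0.71, and CXCL1 and CXCL3 had 0.50.

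Among the genes outside the 10, those most like each member over the 20 arrays, on quantile-normalized values, were as follows. CCL3 was most like GAMT at r = 0.981, SIDT2 and MAN2B1, both at 0.979; GAMT encodes a creatine synthesis enzyme and MAN2B1 lysosomal alpha-mannosidase. IL6 was most like UCA1, a long non-coding RNA, at 0.979, SQSTM1, the autophagy receptor p62, at 0.971, and ATP6V0E1, a subunit of the vacuolar proton pump, at 0.965. CXCL8 was most like URB2, XPO5 and MRTO4, at 0.952, 0.948 and 0.945; URB2 and MRTO4 act in ribosome biogenesis and XPO5 exports microRNA precursors. CXCL1 was most like RITA1 at 0.946 and SLC19A1 and MAPKAPK2, both at 0.934. LIF was most like EPG5, ZER1 and JAK1, the last a kinase of cytokine receptors, at 0.953, 0.953 and 0.952. IL1B was most like KYNU, MYOF and SEL1L (0.935, 0.935 and 0.933), IL1A was most like GOLM2 (0.933) and CCL20 was most like PRMT2 (0.909). The highest values for CXCL3 and CXCL2 were lower, 0.83 with PCGF1 and 0.81 with MKRN3. As deposited, the pairs named here had r from 0.707 (CXCL2 and MKRN3) to 0.971 (CXCL8 with XPO5 and with MRTO4). IL6 and ATP6V0E1 had 0.726 as deposited, and LIF and ZER1 had 0.81.

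Counts for related lists at 24 h are read beside the all-gene shares, which were 1.50% higher and 23.0% lower at 3 ng and 4.52% and 23.5% at 5 ng as deposited, and 15.4% and 12.5% at 3 ng and 20.6% and 17.2% at 5 ng after quantile normalization. Of 45 other chemokines and cytokines measured, 0 were higher and 3 lower at 3 ng for 24 h, and 4 were higher and 2 lower at 5 ng, with list medians of -0.173 and -0.240 against -0.235 and -0.240 for all genes. TSLP, an epithelial cytokine of type 2 immunity, was called lower at 3 ng, at 1.14 ± 0.31 (SD, n = 4) against 2.02 ± 0.43 at 0 ng, low signals that were not shown to be above background, so no fold is given. IL24 fell by 0.57 ± 0.16 at 3 ng (not called after quantile normalization) and 0.81 ± 0.16 at 5 ng. CCL5, a T cell attractant, rose by 0.77 ± 0.22 at 5 ng, CSF1, the macrophage growth factor, by 0.64 ± 0.15 and IL18 by 0.63 ± 0.20. After quantile normalization 11 of the 45 (24.4%) were called higher, a share near the 20.6% of all genes, and 1 (2.22%) lower at 5 ng. At 3 ng on that scale 6 (13.3%) were called higher, near the 15.4% of all genes, and 1 (2.22%) lower.

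The receptors and their adaptors had 0 of 24 higher and 4 lower at 3 ng, and 3 higher and 4 lower at 5 ng. The 4 lower are 16.7% of the list, below the share of all genes at each dose. After quantile normalization 8 (33.3%) were higher and 2 (8.33%) lower at 3 ng, against 15.4% and 12.5% of all genes. At 5 ng on that scale 10 (41.7%) were higher and 3 (12.5%) lower, against 20.6% and 17.2%. IL1R1, the signalling receptor for IL1A and IL1B, was called lower at both doses and on both scales, with deposited means of 4.05 ± 0.27 (SD, n = 4) at 0 ng, 3.17 ± 0.20 at 3 ng and 2.44 ± 0.38 at 5 ng. These signals were not shown to be above background, so no fold is given. CXCR2, the receptor for CXCL1, CXCL2, CXCL3 and CXCL8, was higher at 5 ng, at 4.31 ± 0.31 (SD, n = 4) against 3.08 ± 0.22 at 0 ng. Its signals were likewise low and not shown to be above background, so no fold is given. TAB2 and MAP3K7, which relay interleukin-1 signals to NF-kB, fell by 0.60 ± 0.16 and 0.57 ± 0.16 at 5 ng.

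Of 18 NF-kB subunits, kinases and inhibitors, 0 were higher and 5 lower at 3 ng, and 3 higher and 4 lower at 5 ng, with list medians of -0.213 and -0.011. The kinase CHUK fell by 0.84 ± 0.20 and 0.79 ± 0.20, the subunit REL by 0.65 ± 0.17 and 0.82 ± 0.17, and the adaptor TRAF1 rose by 1.15 ± 0.14 at 5 ng and by 0.84 ± 0.14 between the doses. After quantile normalization the split turned to 8 higher and 3 lower at 3 ng and 10 higher and 3 lower at 5 ng, while CHUK and REL were called lower and TRAF1 higher on both scales. Among 10 other NF-kB targets, 0 were higher and 3 lower at 3 ng, and 4 higher and 3 lower at 5 ng. On the quantile scale 4 were higher and 2 lower at each dose. PTX3 fell by 0.98 ± 0.26 and 0.99 ± 0.26, TNFAIP2 by 0.73 ± 0.17 and 0.91 ± 0.17, and PTGS2, the inducible cyclooxygenase, rose by 1.24 ± 0.19 at 5 ng.

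**Figure D4:**
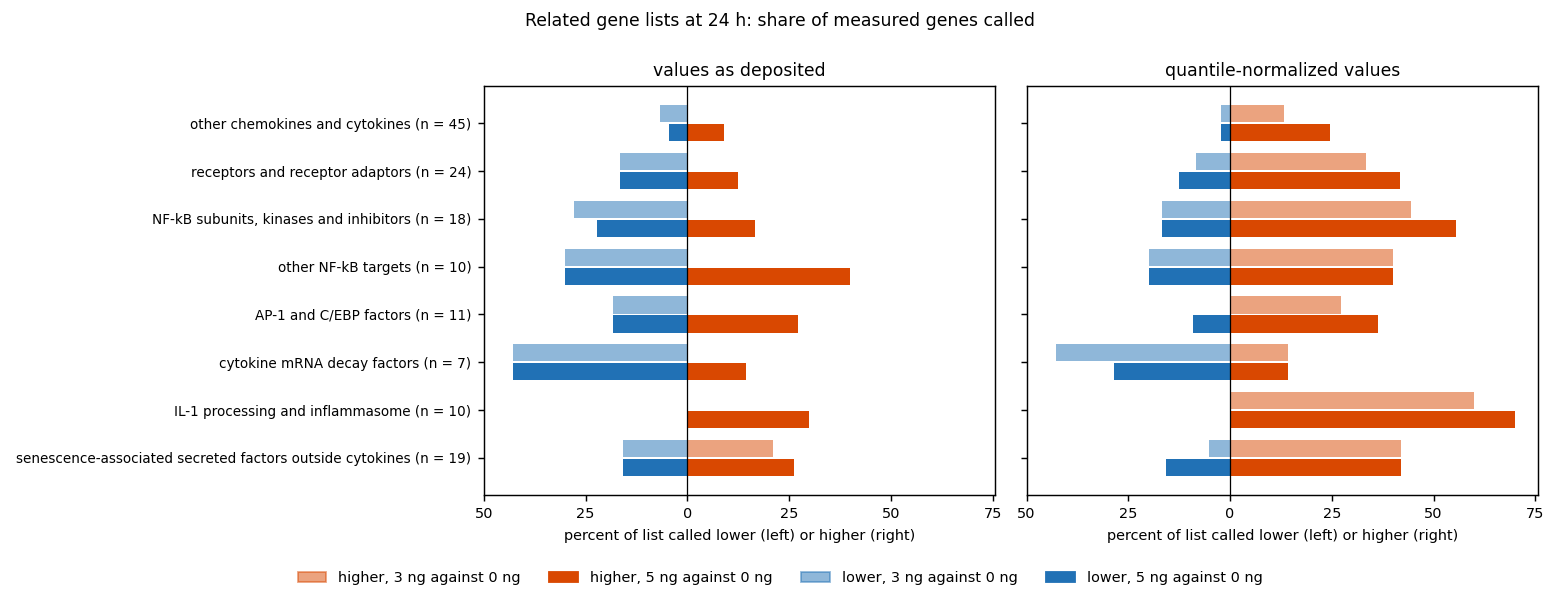
Percent of the measured genes of each related list called lower (left of 0) or higher (right of 0) at 24 h, for 3 ng (pale) and 5 ng (dark) against 0 ng, as deposited (left panel) and after quantile normalization (right panel). As deposited 0 of 10 genes of interleukin-1 processing are called lower and 3 of 10 higher at 5 ng. In the mRNA decay list, which also holds the stabilising factor ELAVL1, 3 of 7 are called lower at each dose. The AP-1 and C/EBP list also holds EGR1, which is in neither family. At 3 ng, 1 of the 8 lists has genes called higher in the left panel and all 8 have in the right panel.

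The list of AP-1 and C/EBP factors also holds EGR1, which is in neither family. Of its 11 genes, 0 were higher and 2 lower at 3 ng, and 3 higher and 2 lower at 5 ng. The quantile counts were 3 higher and 0 lower at 3 ng, and 4 higher and 1 lower at 5 ng. FOSL2 fell by 0.60 ± 0.15 at 3 ng (not called after quantile normalization) and 0.66 ± 0.15 at 5 ng, and EGR1 and ATF3 rose by 0.80 ± 0.13 and 0.87 ± 0.25 at 5 ng. Of 7 factors that bind cytokine mRNA and set its stability, 3 (42.9%) were lower at each dose, against 23.0% and 23.5% of all genes, and 1 was higher at 5 ng. On the quantile scale 1 was higher at each dose, and 3 were lower at 3 ng and 2 at 5 ng. HNRNPD was at 11.44 ± 0.30 (SD, n = 4) at 0 ng, 10.67 ± 0.09 at 3 ng and 10.66 ± 0.14 at 5 ng for 24 h. KHSRP, which promotes decay of AU-rich mRNA, fell by 1.05 ± 0.14 and 1.27 ± 0.14, ELAVL1, which stabilises it, fell by 0.65 ± 0.16 and 0.49 ± 0.16 (the latter not called after quantile normalization), and ZFP36, another decay factor, rose by 0.48 ± 0.16 at 5 ng. Of 10 genes of interleukin-1 processing and the inflammasome, 0 were called at 3 ng and 3 were higher at 5 ng, namely NLRP3 (1.06 ± 0.15), PYCARD (0.75 ± 0.15) and CASP1 (0.73 ± 0.21). As deposited the list medians were -0.056 and 0.156. After quantile normalization 6 (60%) were called higher at 3 ng and 7 (70%) at 5 ng, against 15.4% and 20.6% of all genes, with 0 lower. The list medians on that scale were 0.319 and 0.424, against 0.08 and 0.07 for all genes.

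Of 19 secreted factors of senescent cells that are not cytokines, 4 were higher and 3 lower at 3 ng, and 5 higher and 3 lower at 5 ng. These counts were 8 and 1 at 3 ng and 8 and 3 at 5 ng after quantile normalization. GDF15, a stress-induced member of the TGF-beta family, rose by 1.14 ± 0.15 and 1.74 ± 0.15, IGFBP3 by 0.92 ± 0.25 and 1.70 ± 0.25, and PLAT, tissue plasminogen activator, by 0.77 ± 0.17 and 1.45 ± 0.17. MMP3, stromelysin, fell by 1.52 ± 0.25 at 5 ng and VEGFA fell by 0.77 ± 0.15 at 3 ng. Between the doses at 24 h, 3 genes of this list were called higher and 0 lower, and of the other chemokines and cytokines IL7 and CSF1 were higher at 5 ng, by 0.74 ± 0.17 and 0.68 ± 0.15.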

How the data were processed

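Total RNA from 20 samples was measured on Affymetrix arrays, 1 sample an array. The authors deposited log2 signals for 33297 transcript clusters. The submitters' processing notes name Affymetrix Power Tools, GCOS, limma and GCRMA without versions, roles or order. How arrays were scaled, and the build, were not given in the sources used here for these signals. The platform annotation gave 1 symbol for 19460 clusters, several for 1754 and none for 12083; the brightest cluster stood for each of 769 genes with more than 1, leaving 18417 genes. Because the arrays were unequally bright, results are also given after quantile normalization over all clusters. That step moved the genes of an array by unlike amounts. In 3 ng for 12 h replicate 2, CXCL1 went from 11.77 to 11.54 and CCL3 from 6.94 to 6.46. Whether the authors' scaling left the arrays unequal was not tested.

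With limma 3.58.1 in R 4.3.3, a model of 5 group means was fitted to the 20 arrays together (15 residual degrees of freedom), with eBayes and Benjamini-Hochberg adjustment over all genes, for 9 comparisons. Differences are log2 values with the model's standard error. The fit was tested on simulated data with independent noise for each gene and no brightness shared within an array. That test therefore does not cover calls that depend on how the arrays are scaled. Alternatives were quantile normalization, centring of arrays on their medians, removal of the dimmest 30% of genes, a replicate block, the mean of a gene's clusters, trended and robust variance, only the groups compared, and leaving out each array. Every member is named in the comparisons, called or not; of each related list up to 4 called genes with the largest differences may be named; for each member up to 3 genes with the highest correlation over the arrays are named. Related lists without a named cluster for a gene count only the genes measured. The members and lists were chosen with earlier results of these data known. Of the marker lists, the endothelial (6 genes), fibroblast (8), basal (4 of 7) and luminal (8) sums ranged over all arrays from 42 to 91, 181 to 368, 8702 to 13116 and 12171 to 19442. Promoter windows are from RefSeq (GRCh38.p14), aligned with Biopython 1.88.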

Additional observations from a re-analysis of the deposited data

Results flagged for a closer look

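In 4 of the 50 groups of 4 arrays (10 members in 5 groups), 1 array lay far from the other 3 by Dixon's ratio; chance gives about 1 in 20 groups. CXCL1 in 3 ng for 24 h replicate 4 was at 11.27, below the next array at 11.48. CXCL2 in 0 ng replicate 4 was at 9.41, above the next array at 8.77. CXCL2 in 5 ng for 12 h replicate 1 was at 8.18, below the next array at 8.58. CCL20 in 0 ng replicate 3 was at 5.91, below the next array at 6.32. After quantile normalization these 4 values were 11.63, 8.85, 8.38 and 5.87.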

How the results depend on the processing

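Over the 9 comparisons and 10 members, 90 differences, the direction and side of the threshold held for 90 with the mean of a gene's clusters, for 88 with the dimmest genes removed, 88 with the replicate block, 87 with trended and robust variance and 87 with only the groups compared, for 61 after centring arrays on their medians and for 47 after quantile normalization. The counts of members called that moved by more than 1.5 times are given first, and the causes were not tested. After quantile normalization the members called higher were 5 (3 ng over 0 ng at 24 h), 6 (5 ng over 0 ng), 1 (5 ng over 3 ng at 12 h), 5 and 4 (24 h over 12 h at 3 ng and 5 ng), 2 and 3 (3 ng and 5 ng for 12 h over 0 ng), and those called lower were 1 (5 ng over 3 ng at 24 h), 1 (24 h over 12 h at 5 ng) and 3 (3 ng for 12 h over 0 ng). After centring, 1 was lower in 3 ng over 0 ng at 24 h, 1 higher in 5 ng over 3 ng at 12 h, 3 lower in 3 ng for 12 h over 0 ng and 0 lower in 5 ng for 12 h over 0 ng. Smaller moves in 5 ng over 0 ng at 24 h were from 3 to 2 lower after quantile normalization and after centring, where CXCL2 was lost (-0.34, adjusted p = 0.166 in limma), and from 2 to 3 higher after centring, where LIF was gained (0.61). Centring also moved the members called higher in 24 h over 12 h from 2 to 3 at both doses, with CCL20 gained (0.60 and 0.48). With trended variance 1 was higher in 5 ng over 3 ng at 12 h. In 3 ng for 12 h over 0 ng, 2 were lower with the dimmest genes removed, 2 with trended variance and 2 with the replicate block. With only the groups compared, 0 were higher in 24 h over 12 h at 3 ng and 1 lower in 5 ng for 12 h over 0 ng. Over the arrays left out in turn, the members called higher ranged from 1 to 2 for 24 h over 12 h at both doses, those called lower from 0 to 3 for 3 ng for 12 h over 0 ng and from 0 to 2 for 5 ng for 12 h over 0 ng, and in 5 ng over 0 ng at 24 h those higher from 2 to 3 and those lower from 2 to 3. After quantile normalization the sign turned in 3 ng over 0 ng at 24 h for CXCL2 (0.03), CXCL3 (0.21), CCL20 (0.26) and IL1A (0.16), and in 5 ng over 0 ng at 24 h for CXCL3 (0.26) and IL1A (0.14). Likewise the sign turned in 5 ng over 3 ng at 24 h for IL1A (-0.02), IL1B (-0.04) and IL6 (-0.06), and in 5 ng over 3 ng at 12 h for CXCL3 (0.04) and IL1A (-0.01). Likewise the sign turned in 24 h over 12 h at 3 ng for CXCL1 (0.03), CXCL2 (0.11), CXCL3 (0.24) and IL1A (0.09), and in 3 ng for 12 h over 0 ng for IL1A (0.06), IL1B (0.11) and LIF (0.01). Likewise the sign turned in 5 ng for 12 h over 0 ng for CXCL3 (0.01), IL1A (0.05) and LIF (0.25), and in the interaction for CCL20 (-0.13) and LIF (-0.01). After centring the sign turned in 3 ng over 0 ng at 24 h for CXCL3 (0.03), CCL20 (0.15) and IL1A (0.05), and in 5 ng over 0 ng at 24 h for CXCL3 (0.17) and IL1A (0.22). Likewise the sign turned in 5 ng over 3 ng at 12 h for CXCL1 (0.16), CXCL2 (0.10) and CXCL3 (0.14), and in 24 h over 12 h at 3 ng for CXCL1 (0.17), CXCL2 (0.17), CXCL3 (0.27), CXCL8 (0.09) and IL1A (0.27). Likewise the sign turned in 3 ng for 12 h over 0 ng for IL6 (-0.03), and in 5 ng for 12 h over 0 ng for LIF (0.10). Likewise the sign turned in the interaction for CCL20 (-0.12), IL1A (-0.06) and LIF (-0.02). Leaving out arrays turned the sign of small differences, in 3 ng over 0 ng at 24 h for CCL20 (-0.19 to 0.01), IL1B (-0.07 to 0.12) and LIF (-0.07 to 0.14), and in 5 ng over 0 ng at 24 h for CXCL3 (-0.15 to 0.01), CCL20 (-0.10 to 0.07) and IL1A (-0.15 to 0.04). It turned also in 5 ng over 3 ng at 24 h for IL6 (-0.05 to 0.08), and in 5 ng over 3 ng at 12 h for CXCL1 (-0.17 to 0.07), CXCL2 (-0.28 to 0.02), CXCL3 (-0.17 to 0.03), CXCL8 (-0.11 to 0.14), CCL20 (-0.08 to 0.22) and IL1A (-0.04 to 0.11). It turned also in 24 h over 12 h at 3 ng for CXCL3 (-0.17 to 0.04) and IL1A (-0.11 to 0.04), and in 3 ng for 12 h over 0 ng for IL1B (-0.17 to 0.02) and IL6 (-0.05 to 0.15). It turned also in 5 ng for 12 h over 0 ng for IL1B (-0.06 to 0.13) and LIF (-0.10 to 0.11), and in the interaction for CXCL1 (-0.22 to 0.02), CXCL2 (-0.18 to 0.12), CCL20 (-0.13 to 0.17), IL1B (-0.07 to 0.05) and IL6 (-0.15 to 0.04). None of the differences that changed sign when an array was left out was called as deposited. The labels do not say whether replicate numbers pair the samples, and the main fit did not pair them. Of 40 same-numbered pairs of arrays from different groups, 13 had deviations from their group means correlated above 0.1 (-0.18 to 0.50, median 0.06). Of 120 differently numbered pairs, 20 did (-0.44 to 0.35, median -0.02). Whether same-numbered arrays share an effect was not tested. With the replicate block, CXCL1 and CXCL8 were called lower in 3 ng for 12 h over 0 ng (adjusted p = 0.0303 and 0.0371 in limma), and it changed no other member's call. The count of all genes called moved by more than 1.5 times in these cases. It went from 468 to 1911 (quantile) and 946 (centring) for 5 ng over 3 ng at 24 h, from 4 to 506, 206, 23 (dimmest removed), 32 (trended), 2 (replicate block) and 0 (only the groups compared) for 5 ng over 3 ng at 12 h, from 816 to 2943 (quantile) and from 731 to 3386 (quantile) and 1246 (centring) for 24 h over 12 h at 3 ng and 5 ng, from 519 to 2797, 3620, 947, 1118 and 232 in the same order without the block for 3 ng for 12 h over 0 ng, from 2750 to 4742 (quantile) for 5 ng for 12 h over 0 ng, and from 0 to 13 (quantile), 1 (centring) and 1 (trended) for the interaction. Over the arrays left out it ranged from 2782 to 5058 in 3 ng over 0 ng at 24 h, 276 to 374 and 0 to 11 in 5 ng over 3 ng at 24 h and 12 h, 484 to 1395 and 506 to 811 in 24 h over 12 h at 3 ng and 5 ng, and 257 to 2782 and 1510 to 3086 in 3 ng and 5 ng for 12 h over 0 ng.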
